A study of Caenorhabditis elegans with 16 samples.

Results

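The 10 genes described here are the metallothioneins mtl-1 and mtl-2, the superoxide dismutases sod-1, sod-2, sod-3, sod-4 and sod-5, and the catalases ctl-1, ctl-2 and ctl-3 of the nematode Caenorhabditis elegans. They were chosen by name as 3 families. A row was found for 9 of them among the 24654 genes counted in these larvae. The manganese superoxide dismutase sod-3 lies on chromosome X and had no row in the table used here, so it is not analysed here. All 9 genes with a row passed the filter on low counts that kept 15845 genes for testing.

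Ribosome-depleted total RNA was sequenced from whole first-stage (L1) larvae of the strain cdk12-as and of wild type (N2). The cdk12-as strain makes an analog-sensitive form of CDK-12, a kinase that acts on the tail of RNA polymerase II, and the compound 3MB-PP1 can block that form. In every group embryos obtained by bleaching hatched without food and were kept at 20 °C for at least 12 h, which arrests larvae at the first stage. Each strain then gave 4 groups of 2 libraries, 16 in all. Larvae fed with inhibitor spent 4 h with OP50 bacteria and 1 µM 3MB-PP1, and fed larvae spent 4 h with OP50 bacteria and 0.1% DMSO. Starved larvae spent the same 4 h without food in DMSO, and larvae at the start were taken before the cultures were divided. No DMSO is labelled for larvae at the start, so further starvation and DMSO cannot be told apart in comparisons of starved larvae with them. The labels give each library a replicate number without saying that it stands for a separate culture, so p-values cover the spread between these libraries alone, which may be technical. The cdk12-as strain was compared with N2 and not with a strain that differs at that gene alone, so the CDK-12 allele and other differences between the strains cannot be told apart.

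Gene counts summed to between 18588196 and 56644943 per library, and the ribosomal RNA gene rrn-2.1 held 20.3 to 50.7% of them, more in replicate 1 than in replicate 2 of every group. Levels are given as CPM, read counts divided by the TMM-scaled library size and set to a common total, for replicate 1 and then replicate 2. Differences are log2 fold changes ± SE from the quasi-likelihood test of edgeR, adjusted by Benjamini-Hochberg over all 15845 genes, and a gene is said to rise or fall only at an adjusted p under 0.05. The 4 adult yolk genes measured, which larvae should lack, summed to 0.478 to 1.80 CPM. In RNA from whole larvae, fewer cells of a type and less RNA per cell cannot be told apart.

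Metallothioneins are small cysteine-rich proteins that bind zinc, copper and cadmium. Superoxide dismutases turn superoxide into hydrogen peroxide and oxygen, and catalases split hydrogen peroxide into water and oxygen, so both enzyme families act in sequence against reactive oxygen. In C. elegans several of these genes are known targets of the FOXO factor DAF-16, which is held out of the nucleus by insulin-like signalling in fed animals and acts during starvation arrest.

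After 4 h of food, transcripts of mtl-1, sod-4 and the 3 catalases were lower than after 4 h of starvation in both strains. Of the 9 genes, 6 fell and 1 rose in cdk12-as, where 12.1% of all tested genes fell and 15.6% rose. In wild type, 5 fell and 1 rose, where 21.5% of all genes fell and 24.4% rose. The median log2 fold change of the 9 genes was -0.75 in cdk12-as, where that of all genes was -0.08, and -1.28 in wild type, where that of all genes was -0.01. The drop was smaller in cdk12-as for 2 genes, mtl-1 and sod-4, by the test of the difference itself, which called 3.79% of all genes in that direction and 2.93% in the other. The inhibitor was followed by a rise of 1 gene, sod-1, in fed cdk12-as larvae, where 3.77% of all genes rose and 8.37% fell. That call was lost with median-of-ratios scaling and without any one of its 4 libraries. The difference between the strains in the effect of the inhibitor was called for 0 of the 9 genes. It was called higher for 0.915% of all genes and lower for 6.02%. Between strains, 7 of the 9 genes were higher in cdk12-as after food with inhibitor, where 19.8% of all genes were higher and 22.5% lower. These comparisons share groups and are not independent of each other.

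**Figure D1:**
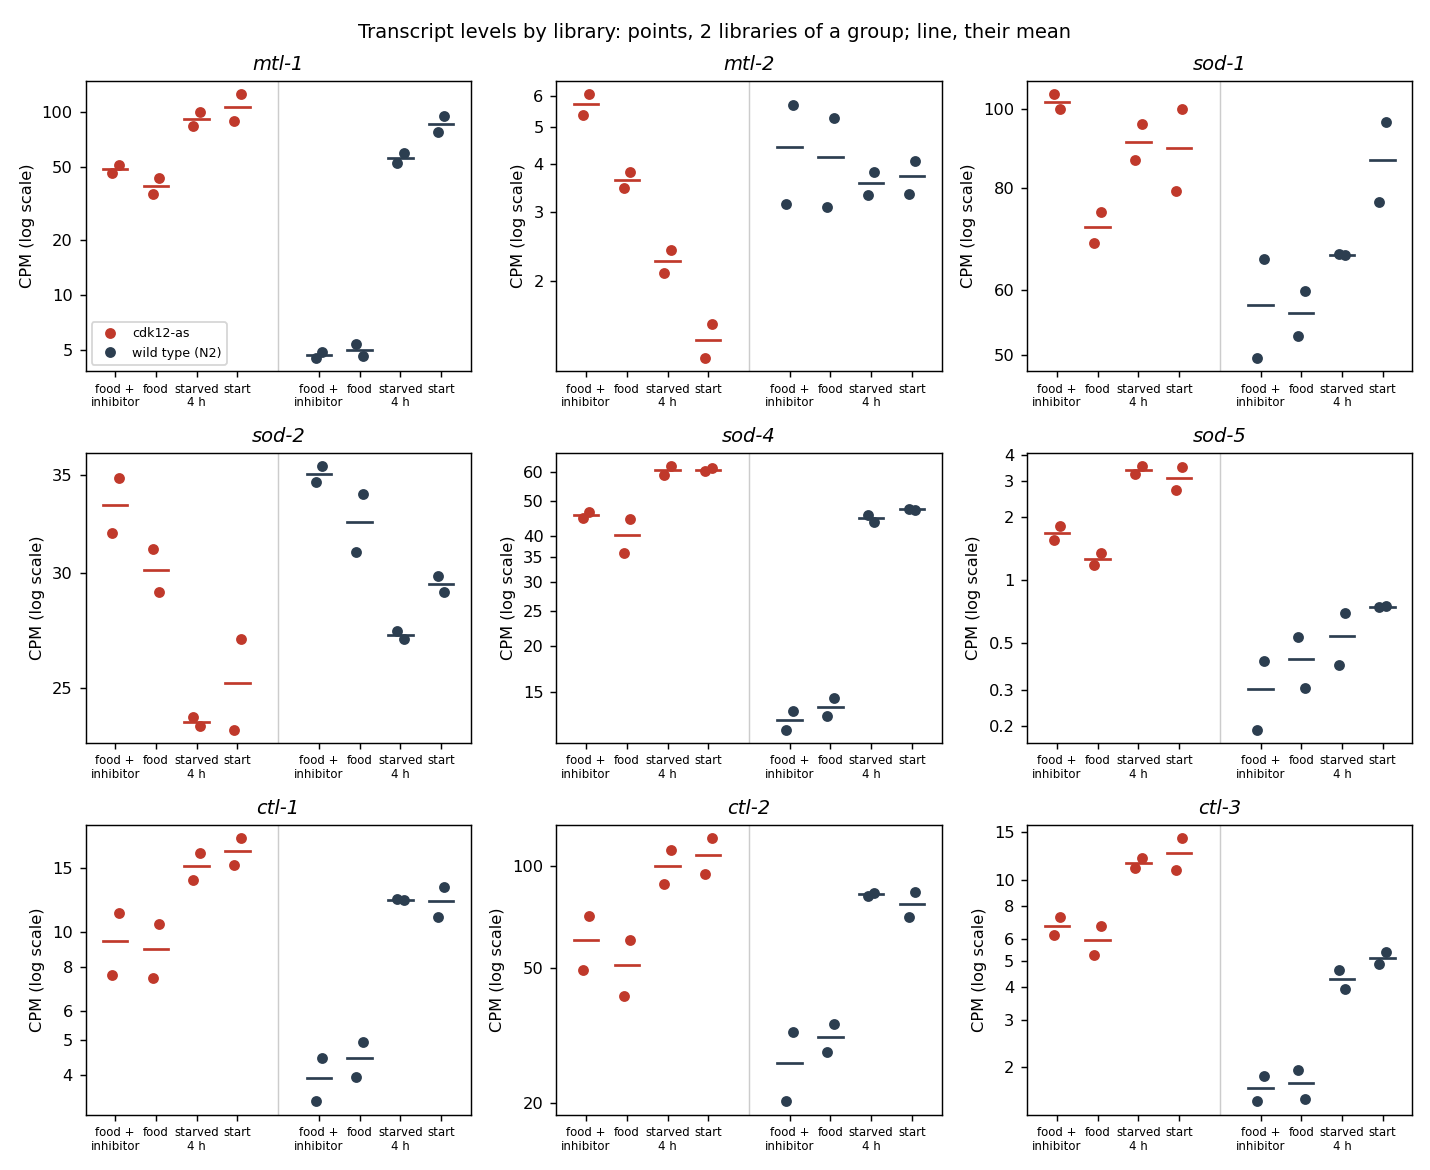
Levels of the 9 measured genes in CPM on log axes, one panel per gene, with cdk12-as groups left of wild-type groups; points are the 2 libraries of a group and lines their mean. The 4 fed wild-type libraries of mtl-1 lie between 4.53 and 5.38 CPM and the 4 fed cdk12-as libraries between 35.5 and 51.6 CPM.

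The metallothionein mtl-1 lies on chromosome V at 6691468 to 6691815 of genome build ce10, on the minus strand, with 2 exons. In cdk12-as it had 46.5 and 51.6 CPM after food with inhibitor, 35.5 and 43.7 CPM after food, 83.8 and 100.3 CPM after starvation and 88.9 and 125 CPM at the start. In wild type it had 4.53 and 4.85 CPM after food with inhibitor, 5.38 and 4.64 CPM after food, 52.9 and 59.8 CPM after starvation and 77.3 and 95.5 CPM at the start. The 4 fed wild-type libraries lay far below all other libraries of the gene, and in cdk12-as the fed libraries lay below the unfed ones. In order of group means, the 3 highest groups (cdk12-as at the start, cdk12-as after starvation and wild type at the start) each overlapped the next of these in order, as did both fed wild-type groups, and the other neighbouring groups did not overlap.

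With food, mtl-1 fell by 1.21 ± 0.17 on the log2 scale in cdk12-as (adjusted p = 0.000183), to a level 2.32-fold below that of starved larvae. In wild type it fell by 3.49 ± 0.19 (adjusted p = 3.94e-08), to a level 11.2-fold below that of starved larvae. The response in cdk12-as minus that in wild type was 2.27 ± 0.25 (95% interval 1.73 to 2.81, adjusted p = 0.000432), and both replicates of each strain fell. With the inhibitor also present, cdk12-as larvae still had less mtl-1 than starved ones (-0.91 ± 0.17, adjusted p = 0.00104). That comparison called 8 of the 9 genes, 2 higher and 6 lower, where 17.0% of all genes were higher and 17.1% lower.

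The inhibitor itself gave log2 fold changes of mtl-1 of 0.31 ± 0.17 (adjusted p = 0.323) for fed cdk12-as and of -0.10 ± 0.19 for fed wild type, neither past the test. A further 4 h without food gave -0.22 ± 0.17 in cdk12-as (adjusted p = 0.503), and in wild type mtl-1 fell by 0.62 ± 0.17 (adjusted p = 0.0497). That fall was the 1 call among the 9 genes, where 3.04% of all genes rose and 3.07% fell in wild type. The call was lost without any one of its 4 libraries, with values of -0.76 without start replicate 1, -0.48 without start replicate 2, -0.53 without starved replicate 1 and -0.70 without starved replicate 2 (adjusted p 0.00205 to 0.281 over its alternatives). The difference between the strains in this comparison did not pass the test (0.40 ± 0.24, adjusted p = 0.72).

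Between strains, mtl-1 was 10.4-fold higher in cdk12-as than in wild type after food with inhibitor (3.39 ± 0.19, adjusted p = 3.81e-08) and 7.89-fold higher after food (2.98 ± 0.19, adjusted p = 1.16e-06). It was higher by 0.71 ± 0.17 after starvation (adjusted p = 0.0119), a call lost without cdk12-as starved replicate 2 (0.57) or wild-type starved replicate 1 (0.62; adjusted p 0.000304 to 0.101 over its alternatives). At the start the difference was 0.31 ± 0.17 (adjusted p = 0.199).

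The second metallothionein, mtl-2, which is known for its strong response to cadmium in the intestine, lies on chromosome V at 14018356 to 14018604, on the minus strand, with 2 exons. In cdk12-as it had 5.37 and 6.06 CPM after food with inhibitor, 3.47 and 3.82 CPM after food, 2.09 and 2.40 CPM after starvation and 1.26 and 1.55 CPM at the start. Wild-type larvae had 3.16 and 5.68 CPM after food with inhibitor, 3.10 and 5.25 CPM after food, 3.32 and 3.82 CPM after starvation and 3.35 and 4.08 CPM at the start. The cdk12-as groups did not overlap each other, whereas the fed wild-type libraries of replicate 1 lay below and those of replicate 2 above all unfed wild-type libraries. In all 8 groups replicate 2 was above replicate 1 for this gene.

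In cdk12-as larvae fed with inhibitor, mtl-2 was higher than in starved ones by 1.35 ± 0.29 (adjusted p = 0.0029), the opposite direction to mtl-1. Food alone gave 0.71 ± 0.29 in cdk12-as (adjusted p = 0.097) and 0.22 ± 0.29 in wild type (adjusted p = 0.584), and the inhibitor in fed cdk12-as gave 0.65 ± 0.28 (adjusted p = 0.182). The food value in cdk12-as passed the test in 2 of 10 alternatives, one of them the fit of the compared groups alone (0.73, adjusted p 0.021 to 0.336 over its alternatives). At the start mtl-2 was lower in cdk12-as than in wild type (-1.38 ± 0.30, adjusted p = 0.00545). It was the 1 gene of the 9 called lower in cdk12-as at the start, with 3 called higher, where 12.8% of all genes were higher and 11.6% lower. Without cdk12-as start replicate 1 that call was lost (-1.26, adjusted p 0.000217 to 0.0537 over its alternatives). Strain differences after starvation (-0.67 ± 0.30), food (-0.18 ± 0.29) and food with inhibitor (0.38 ± 0.27) did not pass the test. The last was called without wild-type food with inhibitor replicate 2 (0.85, adjusted p 0.0318 to 0.995 over its alternatives).

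Per kilobase of coding length, mtl-1 was the more abundant metallothionein in 14 of the 16 libraries. Its share of the summed level per kilobase was 87.8 to 98.6% in the 8 cdk12-as libraries and 41.8 to 95.2% in the 8 wild-type libraries. In the fed wild-type libraries mtl-2 held 45.3 and 58.2% of the sum with inhibitor and 40.6 and 57.3% without it, and in the fed cdk12-as libraries 12.1 and 12.2% with inhibitor and 10.4 and 9.40% without it.

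The cytosolic copper/zinc enzyme sod-1 lies on chromosome II at 6972834 to 6973838, on the minus strand, with 5 exons. In cdk12-as it had 104 and 99.8 CPM after food with inhibitor, 68.6 and 74.7 CPM after food, 86.5 and 95.8 CPM after starvation and 79.3 and 100.1 CPM at the start. In wild type it had 49.6 and 65.5 CPM after food with inhibitor, 52.8 and 59.9 CPM after food, 66.4 and 66.3 CPM after starvation and 77.0 and 96.4 CPM at the start. The cdk12-as libraries with inhibitor lay above those with food alone, and all 4 fed cdk12-as libraries lay above all 4 fed wild-type libraries, whereas the strains overlapped at the start.

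In fed cdk12-as, sod-1 rose by 0.51 ± 0.15 with the inhibitor (adjusted p = 0.0448), a 1.42-fold difference. The call was lost with median-of-ratios scaling (0.48) and without any one of its 4 libraries, with values of 0.46 without food with inhibitor replicate 1, 0.54 without food with inhibitor replicate 2, 0.45 without food replicate 1 and 0.57 without food replicate 2 (adjusted p 0.00293 to 0.244 over its alternatives). In fed wild type the inhibitor gave 0.03 ± 0.15, and the difference between the strains was 0.48 ± 0.21 (adjusted p = 0.299). That difference in the effect of the inhibitor was called for 0 of the 9 genes by edgeR and by DESeq2, with 1 gene (sod-1) at an unadjusted p under 0.05, where 0.915% of all genes were called higher and 6.02% lower.

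Food alone gave sod-1 values of -0.35 ± 0.15 in cdk12-as (adjusted p = 0.111) and -0.24 ± 0.15 in wild type (adjusted p = 0.231). In cdk12-as the lower level passed the test in 2 of 10 alternatives, one of them scaling to total counts without rrn-2.1 (-0.44). In cdk12-as that scaling shifted the all-gene median by -0.09, from -0.08 to -0.17. The wild-type value passed with that scaling (-0.49, or -0.23 relative to the all-gene median) and in a fit of the compared groups alone (-0.26; adjusted p 0.00562 to 0.591 over its alternatives). After food with inhibitor, sod-1 was higher in cdk12-as than in wild type by 0.83 ± 0.15 (adjusted p = 0.000736). The strain difference was 0.35 ± 0.15 after food (adjusted p = 0.106), 0.46 ± 0.15 after starvation (adjusted p = 0.0537) and 0.05 ± 0.15 at the start (adjusted p = 0.846). The difference after starvation passed the test in 5 of 10 alternatives, DESeq2 among them (0.43, adjusted p 0.0061 to 0.227 over its alternatives). That after food passed in 3 of 10, among them scaling to total counts without rrn-2.1 (0.53, or 0.41 relative to the all-gene median) and the fit of the compared groups alone (0.44; adjusted p 0.0077 to 0.388 over its alternatives).

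The copper/zinc enzyme sod-4, the extracellular or membrane-bound form, lies on chromosome III at 9497092 to 9500113, on the minus strand, with 7 exons. In cdk12-as it had 44.8 and 46.6 CPM after food with inhibitor, 35.9 and 44.6 CPM after food, 58.9 and 62.2 CPM after starvation and 60.4 and 61.4 CPM at the start. Wild-type larvae had 11.8 and 13.2 CPM after food with inhibitor, 12.9 and 14.4 CPM after food, 45.8 and 43.7 CPM after starvation and 47.5 and 47.2 CPM at the start. As for mtl-1, the 4 fed wild-type libraries lay below all others, and the fed cdk12-as libraries lay near those of unfed wild type. The strains did not overlap in fed or in unfed larvae.

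With food, sod-4 fell by 0.59 ± 0.10 in cdk12-as (adjusted p = 0.000893) and by 1.71 ± 0.11 in wild type (adjusted p = 8.97e-08), or 1.504-fold and 3.28-fold. The response in cdk12-as minus that in wild type was 1.13 ± 0.15 (95% interval 0.81 to 1.44, adjusted p = 0.00117), with both replicates of each strain lower after food. With the inhibitor present, sod-4 was lower than in starved cdk12-as larvae (-0.41 ± 0.10, adjusted p = 0.00782). That call was lost without food with inhibitor replicate 1 (-0.35) or starved replicate 2 (-0.36; adjusted p 0.000207 to 0.0662 over its alternatives). Adding the inhibitor to food gave 0.18 ± 0.10 in cdk12-as (adjusted p = 0.334) and -0.12 ± 0.11 in wild type.

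Between strains, sod-4 was 3.65-fold higher in cdk12-as after food with inhibitor (1.87 ± 0.11, adjusted p = 4.36e-08) and 2.96-fold higher after food (1.56 ± 0.11, adjusted p = 1.74e-06). After starvation it was higher by 0.44 ± 0.10 (adjusted p = 0.011) and at the start by 0.36 ± 0.10 (adjusted p = 0.0215). The starved call was lost without cdk12-as starved replicate 2 (0.40) or wild-type starved replicate 2 (0.40; adjusted p 0.00262 to 0.0945 over its alternatives). The call at the start was lost with no filter on low counts (0.33) and without any one of its 4 libraries, with values of 0.38 without cdk12-as replicate 1, 0.35 without cdk12-as replicate 2, 0.38 without wild-type replicate 1 and 0.35 without wild-type replicate 2 (adjusted p 0.00571 to 0.116 over its alternatives). Further starvation gave sod-4 values of -0.01 ± 0.10 in cdk12-as and -0.08 ± 0.10 in wild type.

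**Figure D2:**
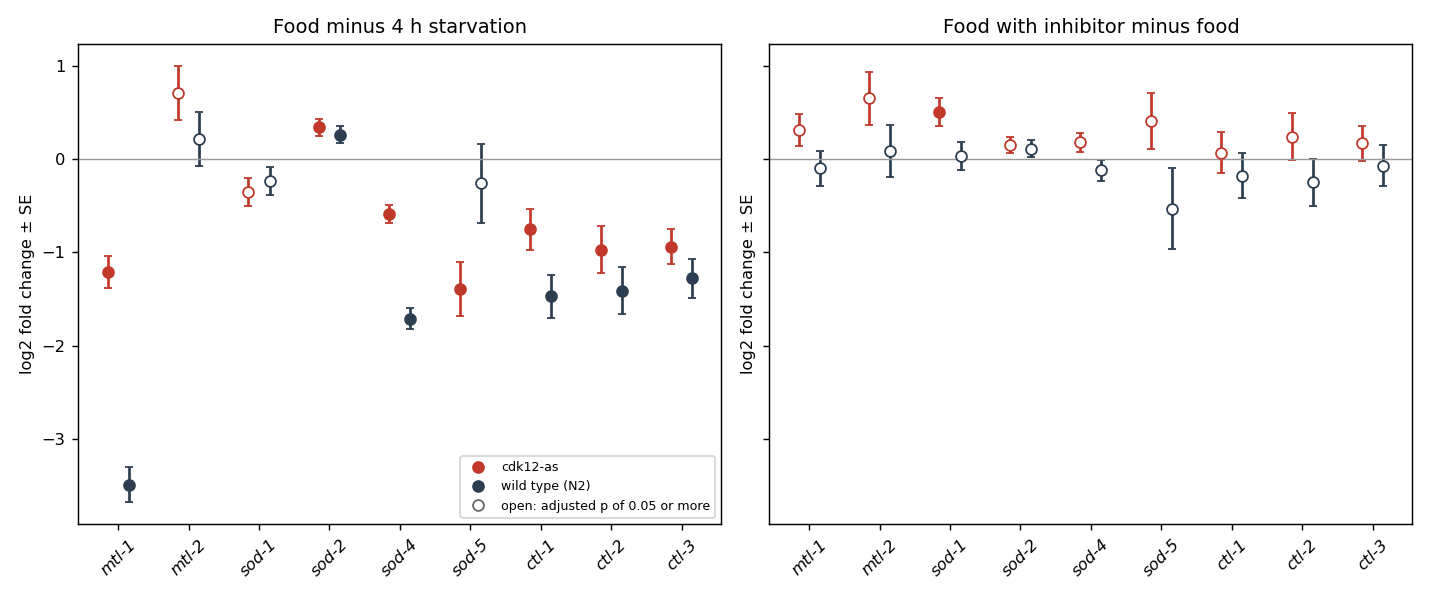
Log2 fold changes ± SE of the 9 genes for food minus starvation (left) and food with inhibitor minus food (right), cdk12-as left of wild type for each gene; filled points have an adjusted p under 0.05. The mtl-1 change with food was -1.21 in cdk12-as and -3.49 in wild type, and sod-1 in cdk12-as is the 1 filled point on the right.

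The second cytosolic copper/zinc enzyme, sod-5, is known from dauer larvae and from animals with low insulin-like signalling, and lies on chromosome II at 4417685 to 4419013, on the plus strand, with 5 exons. In cdk12-as it had 1.56 and 1.83 CPM after food with inhibitor, 1.19 and 1.36 CPM after food, 3.23 and 3.53 CPM after starvation and 2.71 and 3.47 CPM at the start. In wild type it had 0.193 and 0.413 CPM after food with inhibitor, 0.534 and 0.306 CPM after food, 0.392 and 0.695 CPM after starvation and 0.742 and 0.752 CPM at the start. Every cdk12-as library lay above every wild-type library. It had between 6 and 175 counts per library, and its wild-type values, from 6 to 31 counts, carry the counting error of few reads.

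Between strains, sod-5 was higher in cdk12-as in all 4 conditions, by 2.49 ± 0.35 after food with inhibitor (adjusted p = 8.82e-05), 1.55 ± 0.37 after food (adjusted p = 0.00782), 2.69 ± 0.33 after starvation (adjusted p = 0.000197) and 2.06 ± 0.30 at the start (adjusted p = 0.000482). The call after food was lost without cdk12-as replicate 2 (1.44) or wild-type replicate 2 (1.25; adjusted p 0.0035 to 0.0687 over its alternatives). With food, sod-5 fell in cdk12-as by 1.39 ± 0.29 (adjusted p = 0.00335), while wild type gave -0.26 ± 0.42 (adjusted p = 0.723). The difference between these responses was -1.13 ± 0.51 (95% interval -2.25 to -0.02, adjusted p = 0.226) and did not pass the test. Cdk12-as larvae fed with inhibitor also had less sod-5 than starved ones (-0.98 ± 0.28, adjusted p = 0.0175). That call was lost without any one of its 4 libraries, with values of -0.86 without food with inhibitor replicate 1, -1.11 without food with inhibitor replicate 2, -1.05 without starved replicate 1 and -0.91 without starved replicate 2 (adjusted p 0.00364 to 0.0972 over its alternatives).

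Per kilobase of coding length, sod-5 made up 1.11 to 2.39% of the 3 copper/zinc enzymes in the cdk12-as libraries and 0.329 to 0.849% in the wild-type libraries, with no overlap. The share of sod-4 was 25.4 to 37.2% in cdk12-as and 13.9 to 35.5% in wild type, and that of sod-1 was 60.7 to 73.5% in cdk12-as and 64.1 to 85.6% in wild type. In the fed wild-type libraries sod-4 held 13.9 to 16.23%, below every other library.

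The mitochondrial manganese enzyme sod-2 lies on chromosome I at 8434550 to 8435671, on the plus strand, with 5 exons. In cdk12-as it had 31.9 and 34.8 CPM after food with inhibitor, 31.1 and 29.1 CPM after food, 23.9 and 23.6 CPM after starvation and 23.4 and 27.02 CPM at the start. Wild-type larvae had 34.6 and 35.5 CPM after food with inhibitor, 31.0 and 34.0 CPM after food, 27.4 and 27.02 CPM after starvation and 29.9 and 29.1 CPM at the start. Fed libraries lay above unfed ones within each strain, and the strains overlapped in fed and in unfed larvae. Its group means spanned 1.48-fold, the narrowest span of the 9 genes, against 22.8-fold for mtl-1.

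With food, sod-2 was the 1 gene of the 9 that rose, by 0.34 ± 0.09 in cdk12-as (adjusted p = 0.0108) and by 0.26 ± 0.09 in wild type (adjusted p = 0.0297). The rise in cdk12-as was lost without food replicate 1 (0.29), starved replicate 1 (0.35) or starved replicate 2 (0.34; adjusted p 0.00435 to 0.084 over its alternatives). The rise in wild type was lost without food replicate 2 (0.20), starved replicate 1 (0.27) or starved replicate 2 (0.25), with no filter on low counts (0.25) and by DESeq2 (0.24). It was 0.002 when libraries were scaled to total counts without rrn-2.1, which shifted the all-gene median by -0.25, and 0.26 relative to that median (adjusted p 0.0232 to 0.989 over its alternatives). With food and inhibitor in cdk12-as, sod-2 was higher than in starved larvae by 0.49 ± 0.09 (adjusted p = 0.000756). Its strain differences, -0.07 ± 0.09 after food with inhibitor, -0.11 ± 0.09 after food, -0.20 ± 0.09 after starvation and -0.22 ± 0.09 at the start, did not pass the test. The last was called without cdk12-as start replicate 2 (-0.33, adjusted p 0.0362 to 0.464 over its alternatives).

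The 3 catalase genes stand in a row on the minus strand of chromosome II, with ctl-2 at 14299581 to 14301944, ctl-1 at 14303545 to 14306177 and ctl-3 at 14307778 to 14310667. Each is separated from the next by 1600 bases. They are similar copies, and how the authors' counting split reads between them is not given in the sources used here, so their separate levels are uncertain. The enzyme of ctl-2 works in peroxisomes and that of ctl-1 in the cytosol.

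The most abundant copy, ctl-2, had in cdk12-as 49.6 and 71.6 CPM after food with inhibitor, 41.6 and 60.8 CPM after food, 89.0 and 112 CPM after starvation and 94.9 and 121.5 CPM at the start. In wild type it had 20.2 and 32.4 CPM after food with inhibitor, 28.3 and 34.3 CPM after food, 82.1 and 83.7 CPM after starvation and 70.9 and 83.9 CPM at the start. Fed libraries lay below unfed ones within each strain, cdk12-as libraries lay above wild-type ones in fed and in unfed larvae, and replicate 2 was above replicate 1 in all 8 groups.

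The copy ctl-1 had in cdk12-as 7.58 and 11.3 CPM after food with inhibitor, 7.43 and 10.5 CPM after food, 13.9 and 16.6 CPM after starvation and 15.3 and 18.2 CPM at the start. Wild-type larvae had 3.37 and 4.47 CPM after food with inhibitor, 3.95 and 4.95 CPM after food, 12.28 and 12.2 CPM after starvation and 11.003 and 13.3 CPM at the start. Its fed and unfed libraries were apart in each strain in the same direction as those of ctl-2.

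The copy ctl-3 had in cdk12-as 6.23 and 7.26 CPM after food with inhibitor, 5.24 and 6.72 CPM after food, 11.005 and 12.1 CPM after starvation and 10.8 and 14.3 CPM at the start. In wild type it had 1.49 and 1.86 CPM after food with inhibitor, 1.96 and 1.53 CPM after food, 4.63 and 3.91 CPM after starvation and 4.86 and 5.37 CPM at the start. The strains did not overlap in fed or in unfed larvae, and the fed cdk12-as libraries reached or passed the level of unfed wild type.

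With food the catalases fell in both strains. In cdk12-as the falls were 0.75 ± 0.22 for ctl-1 (adjusted p = 0.0235), 0.97 ± 0.25 for ctl-2 (adjusted p = 0.0113) and 0.94 ± 0.19 for ctl-3 (adjusted p = 0.00234). In wild type they were 1.47 ± 0.23 for ctl-1 (adjusted p = 0.000217), 1.41 ± 0.25 for ctl-2 (adjusted p = 0.000559) and 1.28 ± 0.21 for ctl-3 (adjusted p = 0.000286). The difference between the strains in this response was 0.72 ± 0.32 for ctl-1, 0.44 ± 0.35 for ctl-2 and 0.34 ± 0.28 for ctl-3, with 95% intervals of 0.02 to 1.41, -0.33 to 1.20 and -0.27 to 0.96, and none passed the test. In cdk12-as the call of ctl-1 was lost without food replicate 1 (-0.54) or starved replicate 2 (-0.61; adjusted p 0.000295 to 0.173 over its alternatives). The call of ctl-2 was lost without food replicate 1 (-0.73) or starved replicate 2 (-0.79; adjusted p 2.56e-05 to 0.11 over its alternatives).

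The inhibitor gave values within one SE of 0 for all 3 catalases in fed cdk12-as, 0.07 ± 0.22 for ctl-1, 0.24 ± 0.25 for ctl-2 and 0.17 ± 0.19 for ctl-3. Against starved larvae, cdk12-as larvae fed with inhibitor had less ctl-1 (-0.68 ± 0.22, adjusted p = 0.0306), ctl-2 (-0.73 ± 0.25, adjusted p = 0.0385) and ctl-3 (-0.77 ± 0.19, adjusted p = 0.00625). All 3 calls were lost without food with inhibitor replicate 1, with values of -0.41 for ctl-1, -0.46 for ctl-2 and -0.64 for ctl-3. Those of ctl-1 and ctl-2 were also lost without starved replicate 2, both at -0.55, and that of ctl-1 in a fit of the 2 groups alone (-0.65). Over the alternatives the adjusted p was 0.000449 to 0.252 for ctl-1, 0.000205 to 0.285 for ctl-2 and 0.000803 to 0.0591 for ctl-3.

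Between strains, ctl-3 was higher in cdk12-as in all 4 conditions, by 2.01 ± 0.20 after food with inhibitor (adjusted p = 4.87e-06), 1.77 ± 0.21 after food (adjusted p = 8.3e-05), 1.43 ± 0.19 after starvation (adjusted p = 0.000354) and 1.30 ± 0.19 at the start (adjusted p = 0.000413). After food with inhibitor ctl-1 was higher by 1.28 ± 0.23 (adjusted p = 0.000631) and ctl-2 by 1.21 ± 0.25 (adjusted p = 0.0019). After food ctl-1 was higher by 1.03 ± 0.23 (adjusted p = 0.0061), a call lost without cdk12-as replicate 2 (0.75) or wild-type replicate 1 (0.87; adjusted p 0.000103 to 0.076 over its alternatives). The difference for ctl-2 after food was 0.71 ± 0.25 (adjusted p = 0.0503), and it passed the test in 7 of 10 alternatives, among them DESeq2 (0.72) and the fit without cdk12-as food replicate 1 (0.96; adjusted p 0.000741 to 0.363 over its alternatives). Neither ctl-1 (0.31 and 0.46) nor ctl-2 (0.28 and 0.48) passed the test after starvation or at the start. At the start each passed in 1 of 10 alternatives, a fit with the replicate number as a block (0.46 and 0.48). For both genes the unfed libraries of the strains did not overlap.

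Of the summed level of the catalases per kilobase, ctl-3 held 7.88 to 9.62% in the 8 cdk12-as libraries and 3.66 to 5.81% in the 8 wild-type libraries, with no overlap. The share of ctl-2 was 76.7 to 79.8% in cdk12-as and 80.7 to 84.1% in wild type, also with no overlap, and that of ctl-1 was 11.9 to 13.8% and 11.6 to 13.5%. Within each strain the shares of ctl-3 in fed and unfed libraries overlapped, although the summed level per kilobase was 36.0 to 59.9 in fed and 75.7 to 102 in unfed cdk12-as libraries, and 16.7 to 27.1 in fed and 57.7 to 68.2 in unfed wild-type libraries.

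**Figure D3:**
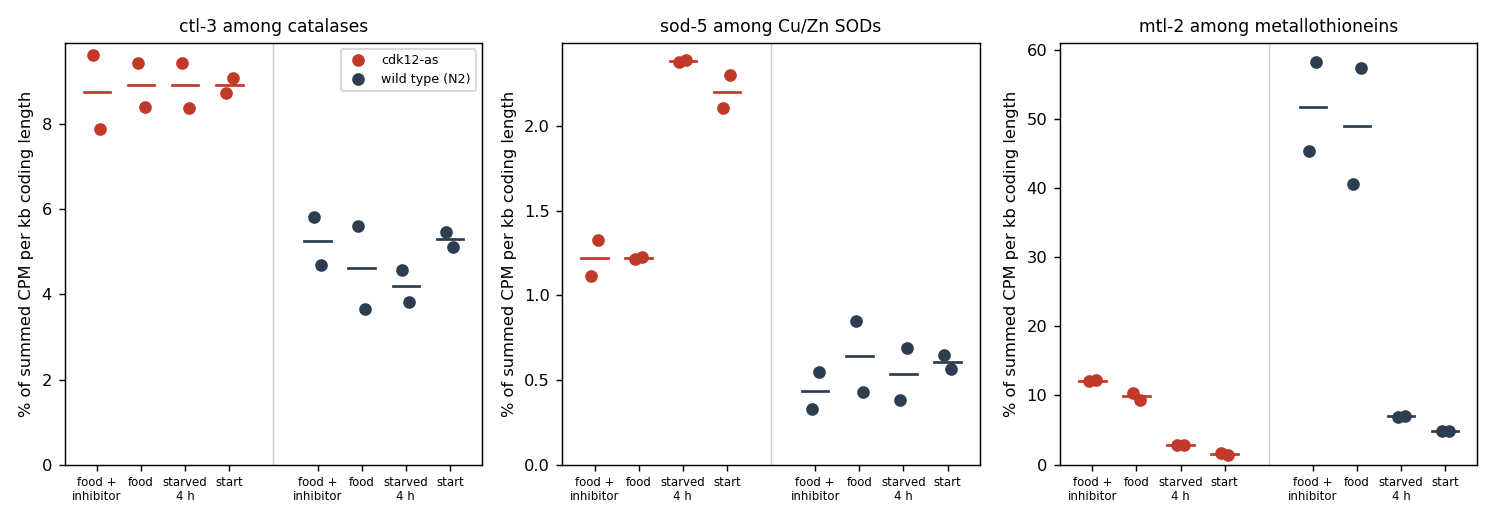
Share of ctl-3 among the catalases, of sod-5 among the copper/zinc enzymes and of mtl-2 among the metallothioneins, in percent of the summed CPM per kilobase of coding length, cdk12-as left of wild type; points are libraries and lines group means. For ctl-3 all cdk12-as libraries lie at 7.88% or above and all wild-type libraries at 5.81% or below.

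Across the strains the number of the 9 genes higher in cdk12-as was 7 after food with inhibitor, 5 after food, 4 after starvation and 3 at the start. Of all genes 19.8% were higher after food with inhibitor, 12.7% after food, 9.8% after starvation and 12.8% at the start. The share of all genes that were lower was 22.5% after food with inhibitor, 8.28% after starvation and 11.6% at the start. After food 2560 of the 15845 genes were lower, more than the 2020 that were higher. The median log2 difference of the 9 genes was 1.28, 1.03, 0.44 and 0.36 in the same order, where that of all genes was 0.02, -0.06, -0.01 and 0.0. Both sod-5 and ctl-3 as well as sod-4 were called in all 4 conditions, mtl-1 in 3, and sod-2 did not pass the test in any of the 4. Removing one library left fewer of the 9 genes called in some fits after food, after starvation and at the start. The share of all genes called in those fits is not given here.

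**Figure D4:**
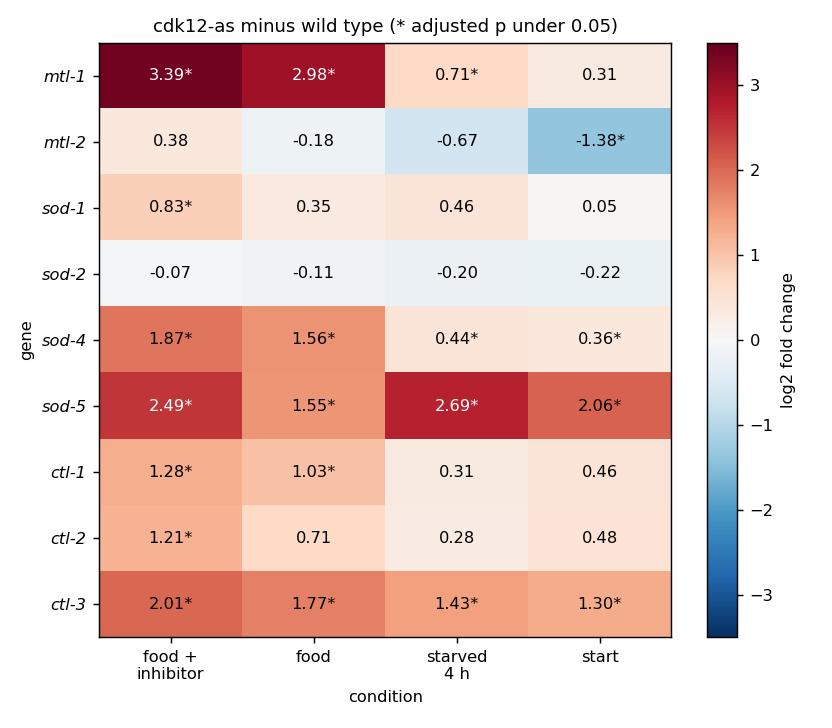
Log2 differences of cdk12-as minus wild type for the 9 genes (rows) in the 4 conditions (columns), coloured red where cdk12-as is higher and blue where it is lower; asterisks mark an adjusted p under 0.05. The largest value is 3.39, for mtl-1 after food with inhibitor, and mtl-2 at the start (-1.38) is the 1 marked negative value.

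In fed wild-type larvae the inhibitor called 0 of the 9 genes by edgeR and by DESeq2, and 0 at an unadjusted p under 0.05. Over all genes it called 0.0% by edgeR, with 305 genes at an unadjusted p under 0.05, and 0 higher and 3 lower genes by DESeq2. Values of the 9 genes there ran between -0.53 ± 0.43 for sod-5 and 0.11 ± 0.09 for sod-2. The 95% intervals were -0.51 to 0.31 for mtl-1 and -0.35 to 0.11 for sod-4. Further starvation of cdk12-as called 0 of the 9 genes by either tool and 0 at an unadjusted p under 0.05, where 2.74% of all genes rose and 3.08% fell by edgeR. The difference between the strains in further starvation likewise called 0 of the 9 genes by either tool and 0 at an unadjusted p under 0.05, with 0.0% of all genes called higher and 0.0316% lower.

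Compared per kilobase of coding length, mtl-1 was the most abundant of the 9 genes in unfed larvae, with group means of 404 after starvation and 469 at the start in cdk12-as, and 247 and 379 in wild type. In fed cdk12-as it averaged 215 CPM per kilobase with inhibitor and 174 without, above the 188 and 132 of sod-1. In fed wild type sod-1 led, at 106 and 104 CPM per kilobase, and mtl-1 averaged 20.6 and 21.97. The rarest was sod-5, between 0.564 and 6.29 CPM per kilobase over the 8 groups. The rank of mtl-1 depends on division by its coding length of 228 bases. In CPM, ctl-2 had higher group means than mtl-1 in cdk12-as after starvation (100.5 against 92.0) and at the start (108.2 against 106.95). The same held in wild type after starvation (82.9 against 56.4). At the start of wild type sod-1 had 86.7 CPM and mtl-1 86.4.

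The group means of log2 CPM of mtl-1 followed those of sod-4 (Pearson's r = 0.99), ctl-1 (0.98), ctl-2 (0.96) and ctl-3 (0.92) over the 8 groups, and those of sod-5 followed ctl-3 (0.95). The correlation of mtl-1 with sod-2 was -0.75 and with mtl-2 -0.49, and mtl-2 and sod-2 had 0.83. These 8 points come from the same libraries for every gene.

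Among 8449 other genes averaging 5 CPM or more, those whose group means were most like mtl-1 were ubc-8 (0.998), B0546.4 (0.997) and ZC443.3 (0.996), again over 8 groups. For sod-4 they were cpg-7 (1.0 when rounded), C29G2.6 (0.998) and H39E23.3 (0.997). For ctl-1 they were sms-1 (0.999), tbc-15 (0.998) and C07E3.3 (0.998), for ctl-2 spsb-1 (0.994), C07E3.3 (0.993) and sms-1 (0.992), and for ctl-3 pkg-2 (0.995), the glutathione S-transferase gst-7 (0.994) and C35E7.6 (0.993). Those of sod-5 were C50F2.7 (0.987), ztf-7 (0.981) and C55A6.6 (0.98). Likeness was lower for sod-1, led by R12E2.17 (0.969), and for mtl-2, led by Y71G12B.10 (0.967), while sod-2 was followed by C09F5.1 (0.983), mag-1 (0.982) and mtr-4 (0.98).

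The counts of other gene lists are set against those over all genes, of which 24.4% rose and 21.5% fell with food in wild type (median -0.01), and 3.77% rose and 8.37% fell when fed cdk12-as received the inhibitor (median 0.06). Of 10 tested genes of the peroxiredoxin and thioredoxin system, 4 rose and 2 fell with food in wild type (median 0.25), and 1 rose and 4 fell with the inhibitor in fed cdk12-as (median -0.01). The peroxiredoxin prdx-6 had 21.7 and 18.6 CPM in fed against 7.19 and 7.04 CPM in starved wild type (adjusted p = 1.85e-06). With the inhibitor it had 7.40 and 7.96 CPM, against 16.095 and 16.3 CPM with food alone in cdk12-as (-1.07 ± 0.13, adjusted p = 0.000115). The methionine sulfoxide reductase msra-1 moved the other way, with 22.7 and 21.02 CPM in fed and 70.8 and 68.5 CPM in starved wild type (-1.67 ± 0.10, adjusted p = 7.18e-08). With the inhibitor in fed cdk12-as msra-1 rose by 0.45 ± 0.10 (adjusted p = 0.0083). The mitochondrial peroxiredoxin prdx-3 rose with food in wild type (0.56 ± 0.10, adjusted p = 0.00052) and fell with the inhibitor (-0.62 ± 0.10, adjusted p = 0.000915), as did the mitochondrial thioredoxin reductase trxr-2 with the inhibitor (-1.52 ± 0.20, adjusted p = 0.000185).

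Of 13 tested genes of glutathione synthesis, reduction and glutathione peroxidases, 7 rose and 2 fell with food in wild type (median 0.32), and 0 rose and 4 fell with the inhibitor in fed cdk12-as (median -0.13). The 4 that fell were glutaredoxin genes. One of them, glrx-5, had 6.58 and 7.30 CPM with the inhibitor and 15.4 and 13.2 CPM without it (-1.03 ± 0.11, adjusted p = 2.78e-05), and another, glrx-3, had 15.1 and 19.5 CPM with it and 32.2 and 37.3 CPM without it (adjusted p = 0.000145). With food in wild type glrx-5 rose by 1.24 ± 0.11 (adjusted p = 1.3e-06) and the glutathione synthetase gss-1 by 0.91 ± 0.10 (adjusted p = 9.6e-06).

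Of 16 tested genes that handle zinc, copper, iron, manganese and cadmium, 5 rose and 3 fell with food in wild type (median 0.04), and 4 rose and 0 fell with the inhibitor in fed cdk12-as (median 0.26, all genes 0.06). Of these, the cadmium-responsive gene cdr-2 had 31.3 and 28.02 CPM with the inhibitor and 14.5 and 12.4 CPM without it (1.15 ± 0.13, adjusted p = 4.11e-05). The copper chaperone cuc-1 rose by 0.79 ± 0.16 (adjusted p = 0.00424), the phytochelatin synthase pcs-1 by 0.51 ± 0.13 (adjusted p = 0.0198) and cdr-6 by 0.34 ± 0.10 (adjusted p = 0.0377). With food in wild type cdr-7 rose by 2.24 ± 0.23 (adjusted p = 4.97e-06), zipt-2.3 by 1.31 ± 0.21 (adjusted p = 0.000185) and cuc-1 by 1.14 ± 0.16 (adjusted p = 7.77e-05), and cdr-2 fell by 0.96 ± 0.13 (adjusted p = 5.13e-05).

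Of 8 tested peroxins, which build the organelle that holds the ctl-2 enzyme, 2 rose and 4 fell with food in wild type (median -0.37), and 1 rose and 1 fell with the inhibitor in fed cdk12-as (median -0.06). The import receptor prx-5 fell with food by 0.50 ± 0.08 (adjusted p = 0.000285), while prx-10 rose by 0.98 ± 0.10 (adjusted p = 4.99e-06). Of 5 genes of the dual oxidase system and its partner peroxidase, 1 rose and 1 fell with food in wild type, and 2 fell with the inhibitor in fed cdk12-as, the dual oxidase bli-3 (-0.69 ± 0.09, adjusted p = 0.000173) and the peroxidase mlt-7 (-0.33 ± 0.08, adjusted p = 0.0181).

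Of 8 tested genes between the insulin receptor and DAF-16, 2 rose and 3 fell with food in wild type (median 0.01). The receptor daf-2 had 213 and 218 CPM in fed and 444 and 462 CPM in starved wild type (-1.07 ± 0.11, adjusted p = 5e-06), and the kinase akt-1 gave -1.16 ± 0.09 (adjusted p = 5.55e-07) and daf-16 -0.74 ± 0.15 (adjusted p = 0.0012). With the inhibitor in fed cdk12-as 0 rose and 2 fell, age-1, the catalytic subunit of phosphoinositide 3-kinase (-1.45 ± 0.10, adjusted p = 1.15e-06), and its adaptor aap-1 (-0.47 ± 0.10, adjusted p = 0.00792). Of 16 other tested transcripts known to be raised by DAF-16, 1 rose and 6 fell with food in wild type (median -0.47), and their median was 0.12 when fed cdk12-as received the inhibitor. Between strains, 9 of these 16 were higher and 0 lower in cdk12-as after food with inhibitor (median 0.86), 6 higher and 0 lower after food (0.49), 3 higher and 2 lower after starvation (-0.09) and 3 higher and 3 lower at the start (-0.51). Of all genes 19.8% were higher and 22.5% lower after food with inhibitor (median 0.02). After food 12.7% of all genes were higher, 2020 of 15845, and more, 2560, were lower (-0.06). After starvation 9.8% of all genes were higher and 8.28% lower (-0.01), and at the start 12.8% were higher and 11.6% lower (0.0). Of 10 tested stress regulators, 1 rose and 5 fell with food in wild type, and 1 fell with the inhibitor in fed cdk12-as, the p38 kinase pmk-1 (-0.71 ± 0.08, adjusted p = 3.63e-05).

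Markers of cell types also moved with food. The 6 intestine markers measured summed to 1016 to 1403 CPM in fed and 740 to 1022 CPM in unfed cdk12-as libraries, and to 1099 to 1701 CPM in fed and 615 to 819 CPM in unfed wild-type libraries. With food 2 of the 6 rose and 1 fell in cdk12-as, and 3 rose and 2 fell in wild type. The 5 body wall muscle markers summed to 5811 to 6343 CPM in fed and 7774 to 10570 CPM in unfed cdk12-as libraries, and to 3326 to 5586 CPM in fed and 8603 to 10340 CPM in unfed wild-type libraries. With food 2 of them fell in cdk12-as and all 5 in wild type. Of 7 neuron markers 0 rose and 1 fell with food in cdk12-as, and 0 rose and 4 fell in wild type. Of 3 epidermis markers 0 rose and 0 fell in cdk12-as, and 1 rose and 0 fell in wild type. Over all genes 15.6% rose and 12.1% fell with food in cdk12-as, and 24.4% rose and 21.5% fell in wild type. None of these 21 markers was at 0 in any library. Between strains, 2 of the 6 intestine markers were higher in cdk12-as after food with inhibitor, 1 after food, 1 after starvation and 2 at the start, and 0 were lower. Of the 7 neuron markers, 2 were higher in cdk12-as after food with inhibitor, 1 after food, and 2 were higher and 1 lower at the start. Of the 5 muscle markers, 1 was higher in cdk12-as after food with inhibitor and 1 after food. Over all genes, 19.8% were higher in cdk12-as after food with inhibitor, 12.7% after food, 9.8% after starvation and 12.8% at the start. The share of all genes lower in cdk12-as was 22.5% after food with inhibitor, 8.28% after starvation and 11.6% at the start. After food 2560 of the 15845 genes were lower and 2020 higher. The part of cell makeup in the falls of mtl-1, sod-4 and the catalases with food, and in the strain differences of the 9 genes, was not tested.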

How the data were processed

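The authors deposited whole-number read counts per gene for 16 libraries, and these counts were analysed as deposited. Per the submitters' processing notes, the tools were Trimmomatic, HISAT2, featureCounts, DESeq2 and deepTools 3.2, with build ce10. Which tool counted this table, and with which strand setting, is not given in the sources used here. Lines that name no gene (no-feature 23.65 to 57.06% and ambiguous 0.83 to 10.7% of a column) were left out. Positions and coding lengths came from a second deposited table (ce10, featureCounts 1.5.0-p2, strand setting 2, per the file header). Its 32 spliced-leader columns carry codes outside the sample labels and were left unused. The count table used here holds 1402 of the 5536 chromosome X genes listed there.

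In R 4.3.3, edgeR 4.0.16 was used to fit 8 group means over 16 libraries, with filterByExpr (minimum count 10), TMM scaling and the quasi-likelihood F test (two-sided, 8 residual and a median of 4.2 prior degrees of freedom, biological coefficient of variation 17.3%). Strain differences in a response were tested as interaction contrasts. SE equals the size of the log2 fold change over the root of F, and 95% intervals use the t distribution. The 2 libraries of a group differed by more than counting noise (chi-square per degree of freedom 55.1 to 468), so none was treated as a library deposited again. This does not show that they came from separate cultures. Alternatives were median-of-ratios (RLE) scaling, scaling to total counts without rrn-2.1, no filter, DESeq2 1.42.0, a fit of the compared groups alone, a replicate block and leaving out each library.

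The members, the 8 pathway lists and the 5 marker lists were chosen with earlier results of these data known. Named genes are all members, up to 4 called genes per pathway list with the smallest adjusted p for food in wild type and for the inhibitor in fed cdk12-as, and the 3 most similar genes per member (prior count 2, Pearson correlation of group means).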

Additional observations from a re-analysis of the deposited data

Results flagged for a closer look

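The food response differed between the strains for 2 of the 9 genes by the interaction test. For the metallothionein mtl-1 the response in cdk12-as minus that in wild type was 2.27 ± 0.25 on the log2 scale (adjusted p = 0.000432), with changes of -1.21 in cdk12-as and -3.49 in wild type. For the superoxide dismutase sod-4 it was 1.13 ± 0.15 (adjusted p = 0.00117), with changes of -0.59 in cdk12-as and -1.71 in wild type. Both passed the test in all 14 alternatives run, at 2.11 to 2.43 for mtl-1 and 0.96 to 1.29 for sod-4 (edgeR's quasi-likelihood test or DESeq2).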

How the results depend on the processing

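Of 756 values of the 9 genes under settings that kept every library, 705 kept direction and side of the threshold, 28 passed it newly, 6 no longer passed it and 17 changed sign. Leaving out 1 library gave 612 values, of which 528 kept both, 42 no longer passed, 3 passed newly and 39 changed sign. There the lone library left in a group is assumed to vary like the other groups. The sign changes were in values that had not passed the test. Not all of these were near 0, with sod-5 for food in wild type at -0.26 ± 0.42 and ctl-2 for the inhibitor in fed wild type at -0.25 ± 0.25. Unless a value shows it, the cause was not tested.

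Scaling to total counts without rrn-2.1 shifted the all-gene median by -0.25 for food in wild type, -0.19 for food with inhibitor in cdk12-as, 0.18 between strains after food, 0.16 for the strain difference in the food response and -0.11 for that in the inhibitor effect. It turned mtl-2 to -0.041 for food in wild type, ctl-1 to -0.023 for the inhibitor in fed cdk12-as, sod-2 to -0.072 for the strain difference in the inhibitor effect, sod-1 to 0.055 for the strain difference in the food response and sod-1 to -0.022 for food with inhibitor in cdk12-as. With further starvation it gave -0.039 for sod-1 in cdk12-as, -0.065 for ctl-1 in wild type and 2 genes called in wild type. Between strains it gave 0.0081 for mtl-2 and 0.075 for sod-2 after food, and 0.0035 for sod-2 after food with inhibitor.

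With no filter, sod-2 was -0.0037 for the strain difference in the inhibitor effect and ctl-1 was -0.018 for further starvation in wild type. RLE scaling called 0 genes for the inhibitor in fed cdk12-as, and gave -0.0013 for sod-1 with further starvation in cdk12-as and -0.0079 for sod-2 in its strain difference. DESeq2 gave -0.0026 and -0.013 for these. A fit of the compared groups alone gave 0.0011 for sod-4 with further starvation in cdk12-as.

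Libraries of the same number deviated together, with correlations of 0.141 to 0.536 between groups. The cultures were divided among the conditions, but the labels do not say that libraries of 1 number share a culture. Pairing by number is therefore a hint from the data, and the block was kept as an alternative. With the replicate block, 2 genes were called for the inhibitor in fed cdk12-as, 2 for further starvation in wild type, 7 between strains at the start and 3 for the strain difference in the food response. The genes newly called with it were mtl-2 (0.68) and sod-1 (-0.35) for food in cdk12-as, mtl-2 (0.65) for the inhibitor in fed cdk12-as, sod-1 (-0.37) for further starvation in wild type and ctl-1 (0.72) for the strain difference in the food response. Between strains they were mtl-1 (0.30), ctl-1 (0.46) and ctl-2 (0.48) at the start, mtl-2 (-0.67) and sod-1 (0.45) after starvation, and sod-1 (0.35) and ctl-2 (0.70) after food. Their adjusted p was 0.000741 to 0.0365, and no call was lost with the block. The share of all genes called with the block is not given here, so whether calls rose for these genes in particular was not tested.

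Leaving out 1 library gave 4 to 7 genes called for food in cdk12-as, 0 for the inhibitor in fed cdk12-as, 3 to 7 for food with inhibitor in cdk12-as, 0 for further starvation in wild type, 2 to 4 between strains at the start and after starvation, and 3 to 6 after food. For food in wild type, mtl-2 ranged from -0.19 to 0.56 and sod-5 from -0.77 to 0.15. For the inhibitor in fed cdk12-as, ctl-1 ranged from -0.25 to 0.35 and ctl-2 from -0.047 to 0.54. For the inhibitor in fed wild type the ranges were -0.20 to 0.015 for mtl-1, -0.38 to 0.51 for mtl-2, -0.18 to 0.23 for sod-1, -0.38 to 0.027 for ctl-1, -0.62 to 0.063 for ctl-2 and -0.23 to 0.13 for ctl-3. For the strain difference in the inhibitor effect they were -0.032 to 0.10 for sod-2 and -0.08 to 0.52 for ctl-1.

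For further starvation in cdk12-as the ranges were -0.44 to 0.052 for mtl-1, -0.13 to 0.20 for sod-1, -0.18 to 0.021 for sod-2, -0.046 to 0.031 for sod-4, -0.038 to 0.32 for sod-5, -0.28 to 0.085 for ctl-2 and -0.31 to 0.094 for ctl-3. In wild type they were -0.20 to 0.063 for mtl-2, -0.12 to 0.13 for ctl-1 and -0.016 to 0.20 for ctl-2. The strain difference ranged from -0.071 to 0.13 for sod-2 and from -0.056 to 0.35 for ctl-3. Between strains, sod-1 ranged from -0.13 to 0.21 at the start and mtl-2 from -0.52 to 0.23 after food. With 2 libraries per group and 6 to 31 counts of sod-5 per wild-type library, small differences of that gene were not detectable at this depth.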
